A study of Homo sapiens with 18 samples.

Results

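The serine and arginine rich splicing factors (SRSF, or SR proteins) were followed here through 10 genes: SRSF1, SRSF2, SRSF3, SRSF4, SRSF5, SRSF6, SRSF7, SRSF8, SRSF10 and SRSF11. The members were all rows of the deposited transcript table that carried 1 of these 10 gene names, which gave 90 transcripts of 145326, and 10 genes of 32490. For each gene, the estimated counts were summed over its transcripts and then split by the annotated type of the transcript. The series compared cells in 3D aggregates before and during exposure to a direct current electric field (dcEF), the setting in which such cells migrate along the field (electrotaxis). Both cell lines are established lines: U87 mg, derived from a human glioblastoma, and DAOY, derived from a human medulloblastoma. There were 6 groups of 3 samples, 18 samples in all: each line with no field (0 h), after 2 h and after 8 h in a field of 250 V/m.

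All groups shared the culture as spheroidal aggregates embedded in a Matrigel mixture within electrotaxis channels, and each sample pooled the cells of 3 channels. Each line is a single line, so a difference between the lines is a difference between these 2 cultures. The study kept the 3 replicates with the best quality measures from a larger set. Aggregates held in the channels for 2 or 8 h with the field off were not analysed here, so field and time in the channel cannot be told apart in any comparison with 0 h. The replicates are separate samples by their labels and biological replicates by the study's methods, and the p-values measure the spread between them.

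SR proteins bind exonic enhancers through RNA recognition motifs and, through a tail rich in arginine and serine, help the spliceosome to settle on neighbouring splice sites. Their own genes are known for a feedback on splicing: when an SR protein is plentiful, a "poison" exon or a retained intron is included in its own transcript and brings a premature stop codon. A stop codon well upstream of the last exon junction marks a transcript for nonsense-mediated decay (NMD), whereas a transcript with a retained intron often stays in the nucleus. The annotation separates these forms as protein_coding, nonsense_mediated_decay and retained_intron transcripts.

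The stop codons below are shown because they are what sets the NMD transcript apart from the protein-coding transcript of the same gene. The sequences were read from the GRCh38 genome and the GENCODE 29 transcripts, in which all 90 member transcripts were found, all with the type given in the deposited table. Each line gives the 27 transcript bases before the premature stop and the stop codon in capitals, 5′ to 3′ on the strand of the transcript, for the most abundant NMD transcript of SRSF5 (ENST00000555547), SRSF6 (ENST00000483871) and SRSF7 (ENST00000443213).
SRSF5 premature stop: atgacgaggagtgcctgtgggttatccTAA
SRSF6 premature stop: gccatgacgacagcagccttttgccatTAG
SRSF7 premature stop: cggcgaagaagaagcaggtatttatttTAA

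In SRSF6 the stop lay at chr20:43459302-43459304 (plus strand), inside exon 3 of 7, a cassette exon of 268 bases at chr20:43459153-43459420 that the leading coding transcript ENST00000244020 lacks. The reading frame closed after 135 codons against 344 in the coding transcript. A cassette exon is either wholly included or wholly skipped.

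SRSF7 and SRSF5 were built differently. In SRSF7 the stop lay at chr2:38749516-38749518 (minus strand), in exon 3 of 7, which at chr2:38748579-38749705 ran for 1127 bases from the start of coding exon 3 to the end of coding exon 4 and so kept the 875 bases of intron between them. The reading frame closed after 132 codons against 235 in the coding transcript ENST00000409276, and 1138 bases lay between the stop and the last junction. In SRSF5 the stop lay at chr14:69769559-69769561 (plus strand), in exon 6 of 8, which at chr14:69769511-69770540 took in 956 bases of the intron before coding exon 6. The frame closed after 138 codons against 272 in ENST00000557154.

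The retained introns of SRSF5 are shown because its retained-intron share differed most between 8 h and 0 h among the 10 genes. Each line gives the last 10 exon bases and the first 20 intron bases, with the GT of the 5′ splice site in capitals, for intron 4 of 7 at chr14:69768897-69769181 (285 bases, kept in ENST00000557460) and intron 5 of 7 at chr14:69769252-69770466 (1215 bases, kept in ENST00000556184).
SRSF5 intron 4 donor: atgatagacgGTatgtgaagggtggatggc
SRSF5 intron 5 donor: cagctggcagGTttgttgaaatacagtttt

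**Figure D1:**
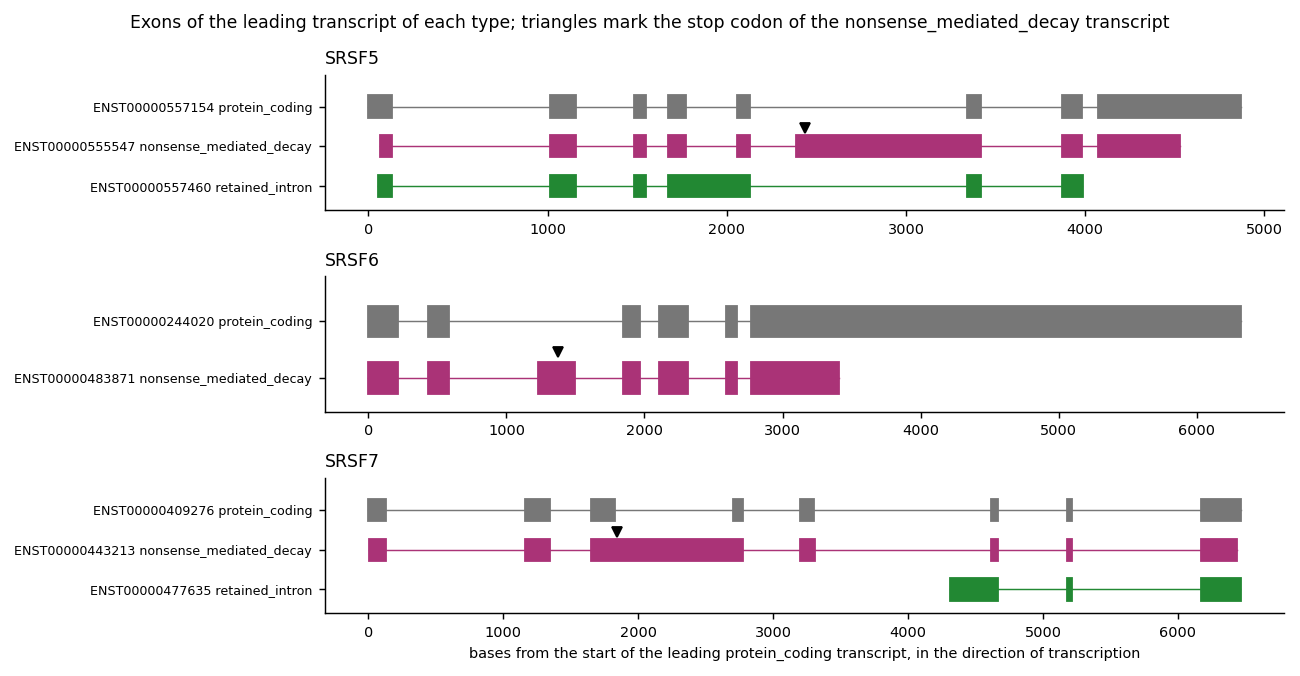
Exons of the leading protein-coding, nonsense_mediated_decay and (except for SRSF6) retained_intron transcripts of SRSF5, SRSF6 and SRSF7, as boxes to scale in bases from the start of the leading coding transcript, with triangles at the stop codons of the nonsense_mediated_decay transcripts. The stop of SRSF6 sat in a separate extra exon, whereas those of SRSF5 and SRSF7 sat in intron sequence joined to coding exons.

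RNA had been selected by its poly(A) tail, the libraries were stranded and single-end, and each sample held between 8341976 and 15610886 estimated counts (median 10269092). The 10 genes took 1595 to 1749 CPM (counts scaled to the library total) in the U87 mg 0 h samples and 2282 to 2373 in the DAOY 0 h samples. Of the 90 member transcripts, 64 to 77 had a count above 0 in a sample. The lowest number, 64, belonged to replicate 0 of DAOY 0 h, which stood apart from the other DAOY controls (Pearson r over genes of 0.928 and 0.943, against 0.954 between the other pair). In it the NMD share was 2.61% for SRSF1, 0.1% for SRSF3 and 0% for SRSF5, so values without that sample are given where they matter. Of the markers of a glioblastoma line, VIM and CD44 were far above the other 5, the astrocyte gene GFAP was at 1.14 to 3.11 TPM (a level scaled for transcript length and library size) in U87 mg 0 h, and SOX2 was at 0 to 0.06. In DAOY 0 h SOX2 was at 3.29 to 5.46 TPM. The 6 medulloblastoma markers in the table summed to 5.21 to 7.26 TPM in DAOY 0 h and 6.69 to 13.39 in U87 mg 0 h, so the list did not mark DAOY: OTX2 was at 1.8 to 2.08 TPM in DAOY 0 h and at 0 in U87 mg 0 h, but GLI1 was at 0 to 0.56 in DAOY 0 h and 2.44 to 7.19 in U87 mg 0 h, GLI2 was at 1.05 to 1.41 and 2.95 to 5.03, and NEUROD1 was at 0 to 0.06 in DAOY 0 h. Blood and endothelial markers summed to 249 to 604 TPM in U87 mg 0 h and 31.1 to 47.3 in DAOY 0 h, with 2 of 4 genes above 1 TPM in each line. CD68 made up most of these sums, with a mean of 449.85 TPM in U87 mg 0 h and 32.25 in DAOY 0 h. PECAM1 was at 1.66 and 7.5, so the sums do not show that blood or endothelial cells were present. In bulk samples, fewer cells of a type and less RNA per cell cannot be told apart.

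By summed TPM, 9 of the 10 genes were abundant in every sample. SRSF1, a shuttling factor of constitutive and alternative splicing, had the highest mean over the 18 samples, 324 TPM, and lay between 249 and 421 TPM. SRSF5 (291 TPM), SRSF3 (279), SRSF2 (269) and SRSF11 (247) followed, then SRSF10 (161), SRSF7 (148), SRSF6 (100) and SRSF4 (82.5). SRSF8, which came from a retrotransposed copy of the SRSF2 transcript, stood last at 12.8 TPM. Among the leading genes the order was loose: in DAOY 0 h the sample ranges of SRSF3, SRSF5, SRSF1 and SRSF2 overlapped from each to the next in the order, and in U87 mg 0 h so did those of SRSF5, SRSF1, SRSF2 and SRSF3. At the low end it was firm, since the range of SRSF8 lay below that of the gene above it in all 6 groups. The highest sample was 1.69 to 2.73 times the lowest for the 9 abundant genes and 10.35 times for SRSF8.

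**Figure D2:**
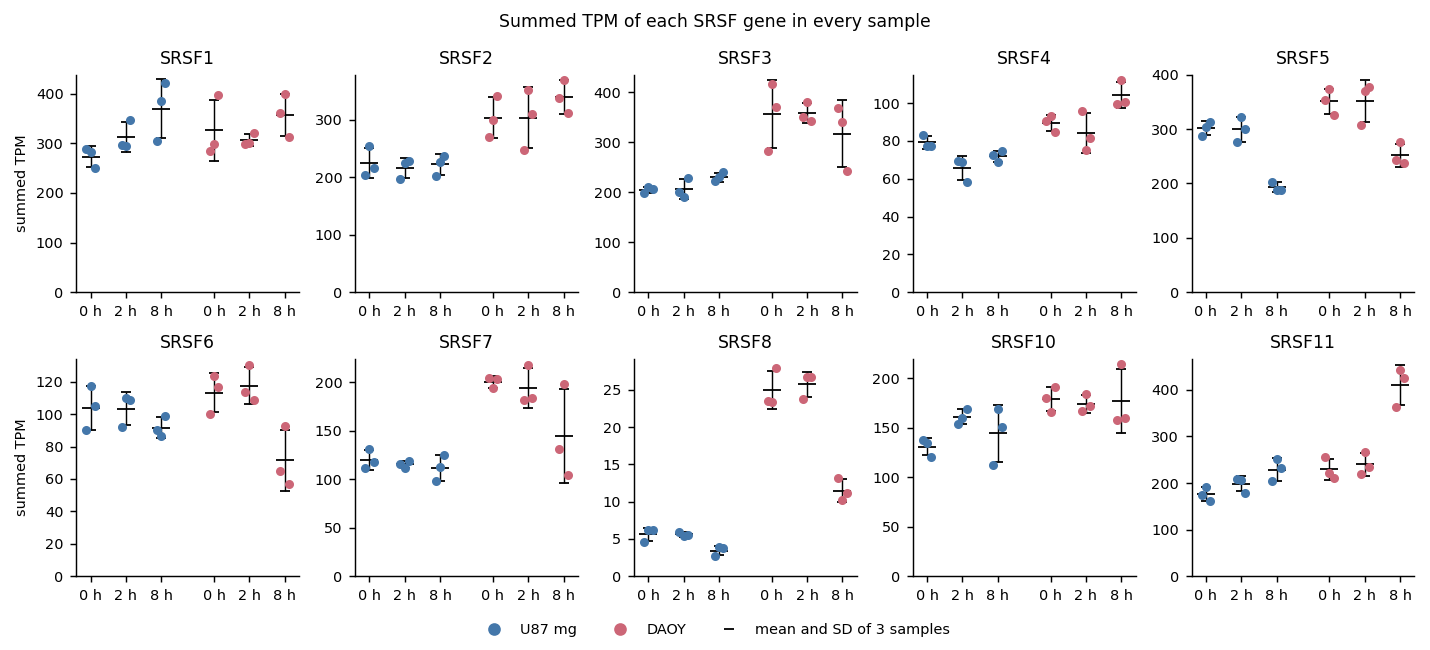
Summed TPM of each of the 10 SRSF genes in the 18 samples, on linear axes from 0 that differ between the panels, with 1 point per sample and the mean and SD of the 3 samples of each group in black. SRSF8 had the lowest mean of the 10 genes in every group and SRSF11 reached its highest values, 362 to 443 TPM, in DAOY 8 h.

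The first comparison asked how the 10 genes differ between the lines before any field. SRSF8 was 4.65, 6.17 and 6.15 TPM in the U87 mg 0 h samples and 23.5, 23.4 and 27.9 TPM in the DAOY 0 h samples. All DAOY values were above all U87 mg values, and the difference in gene sums was 2.09 on the log2 scale (SE 0.16, adjusted p = 5.56e-09, edgeR's quasi-likelihood test over all 18 samples with Benjamini-Hochberg adjustment over 16482 genes). SRSF3, an export adaptor and the smallest SR protein, was at 199, 210 and 206 TPM in U87 mg and at 283, 416 and 370 in DAOY, again with no overlap. Its log2 difference was 0.98 (SE 0.15, edgeR adjusted p = 2.54e-05).

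SRSF7, a relative of SRSF3 that carries a zinc knuckle, was at 111, 132 and 118 TPM in U87 mg and at 205, 194 and 203 in DAOY (log2 0.73, SE 0.18, edgeR adjusted p = 0.00166). SRSF2, a nuclear factor that activates many exonic enhancers, was higher by 0.42 (SE 0.14, edgeR adjusted p = 0.0147), and that call was lost without U87 mg 0 h replicate 0 (0.0541) or replicate 2 (0.0697). The other 6 genes gave log2 differences from -0.01 (SRSF6) to 0.35 (SRSF10) and did not pass, though SRSF11 (log2 0.33, edgeR adjusted p = 0.0596) did with DESeq2 (0.0356). In all, 1 of the 10 genes passed both an FDR of 0.05 and an absolute log2 fold change of 1, against 41.2% of all genes, and 4 passed the FDR alone, against 60.7%. Both counts lay below the background shares, and 9 of the 10 log2 differences were above 0, that is, higher in DAOY.

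After 8 h, the sums of SRSF8 and SRSF11 passed the FDR in DAOY, in opposite directions, and that of SRSF6 missed it narrowly. SRSF8 was 23.5, 23.4 and 27.9 TPM at 0 h and 13.2, 10.2 and 11.1 TPM at 8 h in DAOY. Every 8 h sample lay below every 0 h sample, and the gene fell by 1.07 on the log2 scale (SE 0.15, adjusted p = 0.00767, edgeR within the 9 DAOY samples, Benjamini-Hochberg over 15396 genes). Without replicate 1 of DAOY 8 h the value was -1.01 and the adjusted p 0.0553. In U87 mg SRSF8 was at 4.65, 6.17 and 6.15 TPM at 0 h and at 2.70, 3.90 and 3.75 at 8 h, with no overlap in normalised counts either (log2 -0.64, SE 0.19, edgeR adjusted p = 0.117). That missed the threshold, and without U87 mg 0 h replicate 0, which stood apart from the other U87 mg controls (r over genes of 0.954 and 0.958, against 0.989), the value was -0.74 (edgeR adjusted p = 0.0401).

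SRSF11 (p54), an atypical member that contacts the proteins defining the 3′ splice site, was at 255, 223 and 212 TPM in DAOY 0 h and at 362, 443 and 424 in DAOY 8 h. The groups did not overlap, and the sum rose by 0.90 on the log2 scale (SE 0.16, edgeR adjusted p = 0.0166), short of the fold threshold. The call was lost when only the 6 samples compared were fitted (adjusted p = 0.0511, edgeR), without DAOY 0 h replicate 2 (0.0583), without DAOY 8 h replicate 1 (0.0777) and without DAOY 8 h replicate 2 (0.0666). In U87 mg it was at 175, 192 and 162 TPM at 0 h and at 204, 252 and 232 at 8 h, again without overlap, with a log2 difference of 0.49 (SE 0.12, edgeR adjusted p = 0.058; 0.0117 with DESeq2, and with edgeR 0.0237 without U87 mg 0 h replicate 0 and 0.0479 without U87 mg 8 h replicate 0). An antisense gene overlaps SRSF11, and the strand setting of the counting step is not given in the sources used here, so reads of the 2 genes may not have been separated.

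SRSF5, an SR protein with an atypical RNA recognition motif beside the usual one and induced by growth signals, was at 288, 305 and 313 TPM in U87 mg 0 h and at 203, 188 and 189 in U87 mg 8 h. The groups did not overlap and the sum fell by 0.58 on the log2 scale (SE 0.11, edgeR adjusted p = 0.0246). That call held without U87 mg 0 h replicate 0, but limma on log2(TPM + 1) gave an adjusted p of 0.0584, the fit of the 6 samples alone 0.0982 and the fit of all 18 samples 0.051. It was also lost without U87 mg 0 h replicate 1 (0.0651, edgeR), 0 h replicate 2 (0.0963), 8 h replicate 1 (0.0779) or 8 h replicate 2 (0.145), with log2 values of -0.63 to -0.54 over all such fits. In DAOY the TPM of SRSF5 was 353, 374 and 327 at 0 h and 242, 276 and 237 at 8 h, whereas its normalised counts overlapped between the groups (log2 -0.29, SE 0.17, edgeR adjusted p = 0.346). The TPM scale divides by the length of each transcript and the count scale does not, so the 2 scales need not give the same difference for a gene with transcripts of unequal length.

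SRSF6, a regulator of tau exon 10 and of wound-response splicing, was at 99.9, 123 and 117 TPM in DAOY 0 h and at 64.9, 93.0 and 57.1 in DAOY 8 h. The groups did not overlap, and the log2 difference of -0.76 (SE 0.20) stood at the edge of the threshold (edgeR adjusted p = 0.0505; 0.0176 with DESeq2, 0.00943 with edgeR on all 18 samples, 0.0115 with no filter and 0.0454 with at least 10 counts in every sample). SRSF4, the largest of the classical SR proteins, was at 90.5, 93.3 and 84.7 TPM in DAOY 0 h and at 99.7, 112 and 101 in DAOY 8 h (log2 0.35, SE 0.14, edgeR adjusted p = 0.168). SRSF7 was at 205, 194 and 203 TPM in DAOY 0 h and at 132, 198 and 104 in DAOY 8 h, a spread at 8 h that left its normalised counts overlapping (log2 -0.27, SE 0.21). SRSF1, SRSF2, SRSF3 and SRSF10, the last a TRA2-like factor that represses splicing when dephosphorylated, had log2 differences between -0.22 and 0.24 in DAOY and between 0.14 and 0.43 in U87 mg, and none passed.

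At 8 h, 1 of the 10 genes passed both thresholds in DAOY (3.13% of all genes) and 0 in U87 mg (0.638% of all genes; 0 also with DESeq2), while the FDR alone was passed by 2 in DAOY (5.85% of all genes) and 1 in U87 mg (1.72% of all genes). An unadjusted p under 0.05 was reached by 4 genes in each line, where 22.7% of all genes reached it in DAOY and 15.9% in U87 mg. At 2 h, 0 of the 10 genes passed in U87 mg (0% of all genes) or in DAOY (0% of all genes) with edgeR, 0 passed with DESeq2 or with limma on log2 TPM, 0 reached an unadjusted p under 0.05 (8.78% of all genes in U87 mg and 2.75% in DAOY), and the lowest adjusted p was 0.495 in U87 mg and 0.999 in DAOY. The widest log2 difference at 2 h was 0.25 (SRSF10 in U87 mg, SE 0.13). The median of the 10 log2 differences at 8 h was -0.09 in DAOY and 0.13 in U87 mg, beside -0.01 and 0.00 over all genes.

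**Figure D3:**
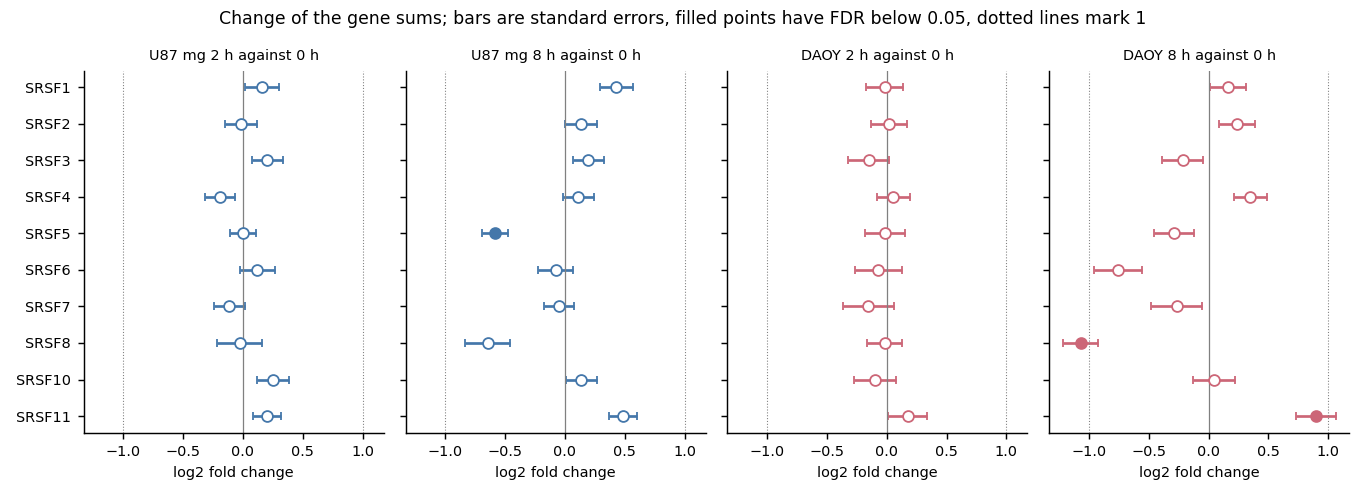
Log2 fold change of the gene sums at 2 h and 8 h against 0 h for the 10 SRSF genes in U87 mg and DAOY (edgeR estimates, bars are standard errors, n = 3 samples a group), with filled points for an FDR below 0.05 and dotted lines at a change of 1 in either direction. SRSF8 at -1.07 and SRSF11 at 0.90 in DAOY 8 h, and SRSF5 at -0.58 in U87 mg 8 h, are the estimates past an FDR of 0.05.

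The difference between the lines was tested directly as an interaction over the 18 samples. At 8 h, 0 of the 10 genes passed an FDR of 0.05 (0.0121% of all genes; 0 also with DESeq2) and 1 reached an unadjusted p under 0.05 (8.88% of all genes), SRSF6, whose change in DAOY was lower than that in U87 mg by 0.67 on the log2 scale (SE 0.25, edgeR adjusted p = 0.389). For SRSF8 the DAOY change minus the U87 mg change was -0.42 (SE 0.22, edgeR adjusted p = 0.629) and for SRSF11 it was 0.42 (SE 0.20, edgeR adjusted p = 0.588). At 2 h, 0 passed (0% of all genes) and 0 reached an unadjusted p under 0.05, with a lowest edgeR adjusted p of 0.62.

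The next question was which kinds of transcript made up each sum. Shares of a gene's estimated counts were compared as log odds with limma within a line, and a pair of gene and type was called at an FDR of 0.05 with at least 5 percentage points of difference. None of the 26 member pairs tested in U87 mg at 2 h or at 8 h, and none of the 24 tested in DAOY at 2 h or at 8 h, was called. The shares of all gene and type pairs called were 0.012% (U87 mg 2 h), 0.012% (U87 mg 8 h), 0.00584% (DAOY 2 h) and 0.0117% (DAOY 8 h). An unadjusted p under 0.05 was reached by 0 and 7 member pairs in U87 mg (6.7% and 5.8% of all pairs), and by 0 and 9 in DAOY (5.43% and 8.94%). The shares that follow are therefore measured values whose differences between 8 h and 0 h did not pass the test across all genes, with 3 samples a group.

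In DAOY at 8 h, SRSF7 held the widest differences. Its protein_coding share was 59.2%, 65.8% and 65.4% in DAOY 0 h, 73.8%, 57.7% and 61.2% in DAOY 2 h and 35.1%, 21.7% and 29.6% in DAOY 8 h. Its nonsense_mediated_decay share was 40.0%, 31.3% and 33.5% at 0 h, 25.2%, 38.8% and 37.7% at 2 h and 58.7%, 69.6% and 66.9% at 8 h. So by estimated counts most of SRSF7 lay on coding transcripts at 0 h and 2 h. In all 3 samples of 8 h most counts lay on NMD transcripts, with no overlap between 8 h and 0 h on this scale. The difference was -34.69 percentage points for protein_coding (limma adjusted p = 0.227) and 30.17 points for nonsense_mediated_decay (limma adjusted p = 0.273). Leaving out any 1 sample gave differences of -37.84 to -31.13 and of 27.89 to 33.36 points. On the share of TPM, which weighs transcripts per length, they were -25.66 and 14.14 points. By TPM the nonsense_mediated_decay share overlapped between 8 h and 0 h. In DAOY 0 h replicate 0, NMD transcripts (109.9 TPM) exceeded the coding ones (90.8), and in DAOY 8 h replicate 0 they did not (55.6 and 56.4).

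Fitting all 18 samples together called the SRSF7 protein_coding share (limma adjusted p = 0.0245), the SRSF7 nonsense_mediated_decay share (0.0352) and the SRSF5 protein_coding share (0.0352) in DAOY 8 h, 3 member pairs of 24 pairs called in all (0.134% of all pairs). In U87 mg the protein_coding share of SRSF7 was 68.9%, 66.5% and 72.1% at 0 h and 64.1%, 53.5% and 60.3% at 8 h, lower in all 3 samples but by 9.93 points on average. Its nonsense_mediated_decay share was 27.5%, 31.3% and 26.8% at 0 h and 33.6%, 43.5% and 36.9% at 8 h (limma adjusted p = 0.857). The difference between the lines did not pass either: the DAOY change minus the U87 mg change was -24.76 points for protein_coding (limma adjusted p = 0.628) and 20.67 for nonsense_mediated_decay (0.712). Of the 25 member pairs in that test at 8 h, which was added after the data were seen, 0 passed an FDR of 0.05 (0% of all pairs) and 2, the SRSF7 pairs just given, reached an unadjusted p under 0.05 (6.27% of all pairs).

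SRSF5 had lower protein_coding shares at 8 h in both lines, and retained_intron transcripts made up most of the rest. Its protein_coding share was 59.9%, 67.1% and 62.8% in DAOY 0 h and 40.7%, 22.1% and 29.5% in DAOY 8 h, a difference of -32.50 points (limma adjusted p = 0.286). In U87 mg it was 65.8%, 66.7% and 67.7% at 0 h and 51.4%, 42.9% and 45.2% at 8 h, a difference of -20.21 points (limma adjusted p = 0.35). In neither line did the 8 h samples overlap the 0 h samples, and the 2 h samples of U87 mg (65.0% to 71.5%) lay near the controls. In DAOY 2 h the shares were 68.05%, 55.18% and 50.64%, with replicates 1 and 2 below all controls.

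The retained_intron share of SRSF5 was 26.7%, 20.2% and 24.4% in U87 mg 0 h and 38.5%, 42.9% and 40.8% in U87 mg 8 h (16.96 points, limma adjusted p = 0.35). In DAOY it was 39.3%, 20.2% and 25.6% at 0 h and 38.0%, 57.4% and 59.6% at 8 h (23.28 points, limma adjusted p = 0.449). The U87 mg groups did not overlap, whereas in DAOY replicate 0 of 0 h lay above replicate 0 of 8 h. Without that control the DAOY difference was 28.75 points. The nonsense_mediated_decay share of SRSF5 was 4.34% ± 4.03 (SD, n = 3) in DAOY 0 h, where replicate 0 was at 0%, 11.53% ± 3.19 in DAOY 2 h and 13.99% ± 5.19 in DAOY 8 h.

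SRSF3 had a high share on transcripts of the type retained_intron everywhere, 41.4% to 66.6% of its counts over the 18 samples. That type does not by itself mean that a whole intron of the coding transcript is kept. ENST00000614136 keeps introns 4 and 5 of ENST00000620941, whereas ENST00000620389, the most abundant transcript of the type, keeps neither. The protein_coding share of SRSF3 was 40.1%, 50.8% and 45.7% in DAOY 0 h and 35.4%, 30.0% and 30.1% in DAOY 8 h (-13.67 points, limma adjusted p = 0.422). In U87 mg it was 49.0%, 55.9% and 54.8% at 0 h and 44.6%, 46.1% and 41.8% at 8 h (-9.09 points). All 8 h samples lay below the 0 h samples in both lines. The nonsense_mediated_decay transcripts of SRSF3 took 0.1% to 7.76% of its counts.

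For SRSF10, the protein_coding share was 81.5%, 79.9% and 80.9% in DAOY 0 h and 72.5%, 67.6% and 72.8% in DAOY 8 h, and its retained_intron share was 9.78%, 11.2% and 5.91% at 0 h and 17.0%, 22.8% and 15.8% at 8 h. Neither pair of groups overlapped (-9.78 points, limma adjusted p = 0.449, and 9.57 points, limma adjusted p = 0.38). For SRSF6, whose 2 listed transcripts are the coding and the poison exon form, the nonsense_mediated_decay share was 14.2%, 28.8% and 25.4% in DAOY 0 h and 31.4%, 33.4% and 32.0% in DAOY 8 h. That difference of 9.50 points (limma adjusted p = 0.605) was 5.21 points without DAOY 0 h replicate 0, the lowest sample. In U87 mg the SRSF6 share was 18.6% ± 3.13 at 0 h and 18.11% ± 5.36 at 8 h, with overlap.

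SRSF11 went the other way. Its protein_coding share was 49.5%, 40.1% and 48.4% in U87 mg 0 h and 60.6%, 57.2% and 64.0% in U87 mg 8 h (14.60 points, limma adjusted p = 0.592). In DAOY it was 46.2%, 52.3% and 54.9% at 0 h and 61.6%, 58.1% and 62.3% at 8 h (9.49 points, limma adjusted p = 0.618). Both 8 h groups lay above their controls, and nearly all the rest of its counts were on transcripts of the type processed_transcript, which have no annotated reading frame. At 2 h the share was 48.67% to 54.15% in U87 mg and 52.99% to 65.5% in DAOY, overlapping the controls. Summed TPM of the coding transcripts was already apart at 2 h. It was 40.3 to 47.4 at 0 h and 53.4 to 56.8 at 2 h in U87 mg, and 60.9 to 72.1 and 92.2 to 94.9 in DAOY. Neither 2 h difference was called.

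For the remaining genes the ranges are given. SRSF1 counts were 86.9% to 97.4% protein_coding in every sample. However, 53.49% of the 31-base words of its transcripts are shared with other genes in the same orientation. Among these, the overlapping gene AC015813.2 had the highest tally. SRSF4 was 85.0% to 93.8% protein_coding, and SRSF8 has 1 transcript and so no split. SRSF2 ranged from 30.2% to 73.9% protein_coding, with replicates of U87 mg 0 h at 30.7%, 62.0% and 44.97%. Of its 31-base words, 32.7% are shared with other genes in the opposite orientation, among which MFSD11 had the highest tally.

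**Figure D4:**
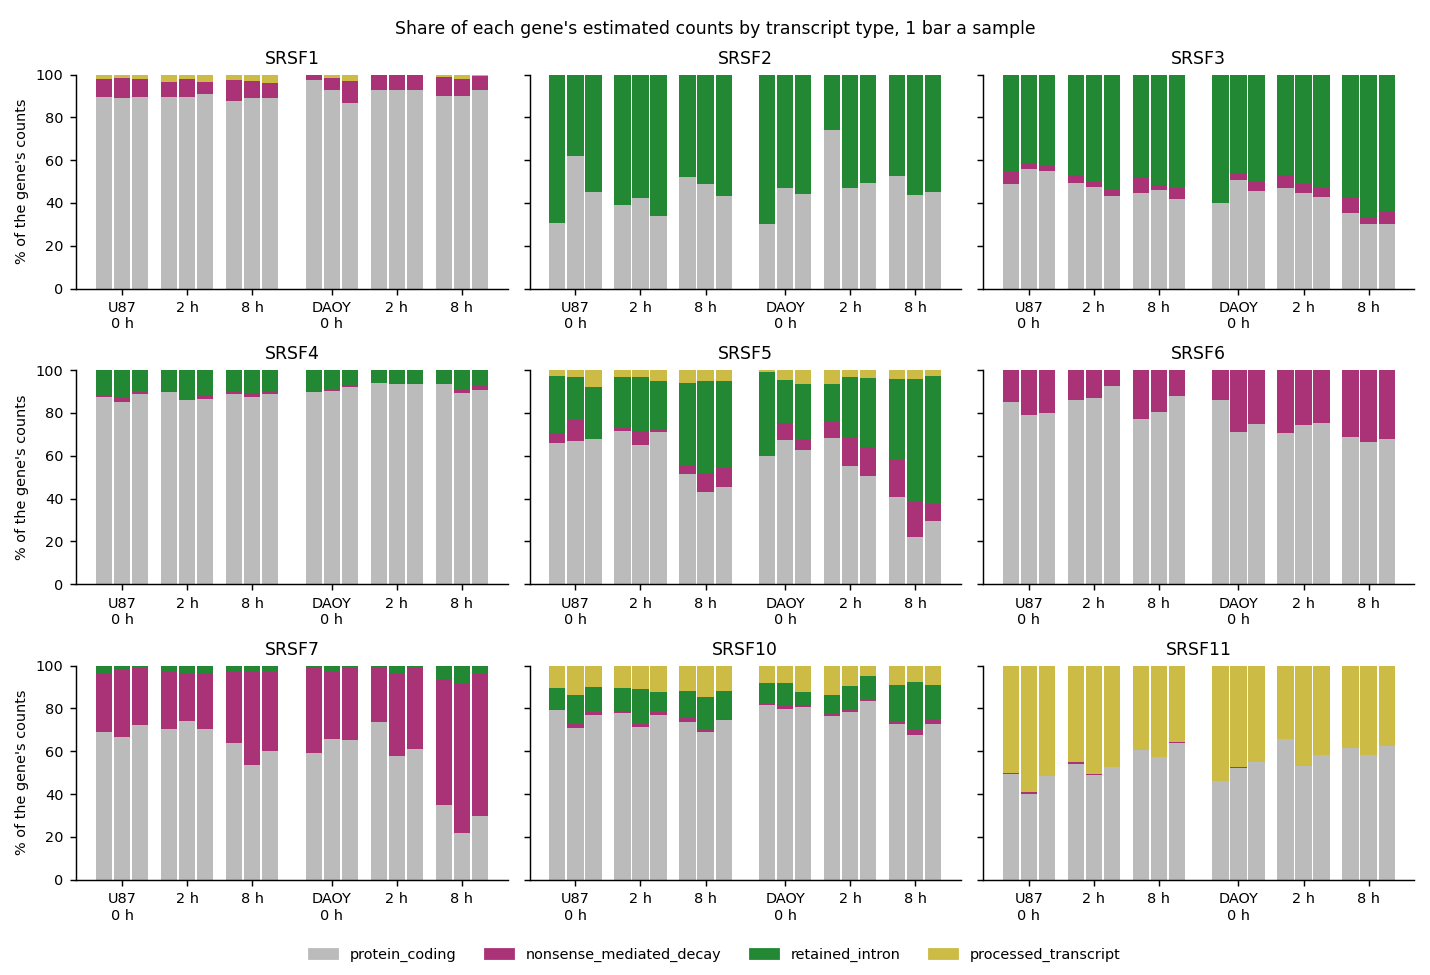
Share of each gene's estimated counts on protein_coding, nonsense_mediated_decay, retained_intron and processed_transcript transcripts, in percent, as 1 stacked bar per sample for the 18 samples, without SRSF8. In DAOY 8 h the protein_coding share was 21.7% to 35.1% for SRSF7 and 22.1% to 40.7% for SRSF5, below all DAOY 0 h samples.

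Read against all genes, the pattern of non-overlapping samples was as follows. In DAOY 8 h, 5 of 9 members tested had a protein_coding share below all controls (SRSF3, SRSF5, SRSF6, SRSF7 and SRSF10), where 12.2% of all genes did, and 1 was above, SRSF11. A nonsense_mediated_decay share above all controls was found for 4 of 6 members tested (SRSF5, SRSF6, SRSF7 and SRSF10) and a retained_intron share above them for 2 of 6 (SRSF7 and SRSF10), where 13.2% of all pairs of these types did. The shares of a gene add up to the whole, so the counts by type, here and in U87 mg, are not independent. For SRSF6, which has no further type, the lower protein_coding and higher nonsense_mediated_decay shares are the same difference. The SRSF10 nonsense_mediated_decay pair, with means of 0.84% (0 h), 0.73% (2 h) and 1.92% (8 h), met the 1% minimum only through its 8 h samples. Its place among the 4 therefore carries no weight, and the median below includes it. For SRSF5 the lowest 8 h sample, 8.02%, lay just above the highest control, 7.95%. The median difference was -9.50 points for protein_coding over the members and -0.72 over all genes, 6.27 and 0.28 for nonsense_mediated_decay, and 7.04 and 1.02 for retained_intron.

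In U87 mg 8 h, 3 of 9 members had a protein_coding share below all controls (SRSF3, SRSF5 and SRSF7), where 5.3% of all genes did, and 1 was above. For nonsense_mediated_decay 1 of 7 and for retained_intron 2 of 6 were above all controls, where 5.36% of pairs were. The medians lay near 0: -0.71 points for protein_coding, 0.06 for nonsense_mediated_decay and 1.24 for retained_intron, against 0.12, 0.04 and -0.19 over all genes. At 2 h, 0 of 9 members were below all controls in protein_coding in U87 mg (5.18% of all genes) or in DAOY (3.93%), and 1 and 0 pairs of the other types were above (5.09% and 3.76% of all pairs). Summed over the 10 genes, the protein_coding share was 66.4%, 67.8% and 66.7% in DAOY 0 h and 63.1%, 56.6% and 62.1% in DAOY 8 h, while in U87 mg it stayed between 67.2% and 70.8% in all 9 samples.

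Of other measures of the DAOY libraries, the mitochondrial share was apart at 8 h, and the shares on retained_intron and nonsense_mediated_decay transcripts overlapped the controls. The share of all counts on mitochondrial genes was 2.92% to 5.70% in DAOY 0 h and 5.97% to 8.44% in DAOY 8 h, and the share on retained_intron transcripts over all genes was 3.02% to 3.29% and 3.21% to 3.81%. The share on nonsense_mediated_decay transcripts over all genes was 3.59% to 4.28% at 0 h and 3.63% to 3.71% at 8 h. The part of these measures in the SRSF shares was not tested.

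A share can shift because one kind of transcript falls or because another rises, so the counts of each type were also tested as sums of their own, with edgeR. In DAOY 8 h, 4 of 26 member sums were called, where 0.952% of all such sums were, and all 4 were protein_coding. SRSF7 protein_coding transcripts together were at 90.8, 133 and 146 TPM at 0 h and at 56.4, 50.5 and 41.2 at 8 h. No sample overlapped, and their count fell by 1.51 on the log2 scale (SE 0.16, edgeR adjusted p = 0.013). SRSF5 protein_coding transcripts were at 185, 252 and 191 TPM at 0 h and at 112, 92.2 and 94.4 at 8 h, again apart, and fell by 1.41 (SE 0.16, edgeR adjusted p = 0.0144).

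The coding count of SRSF8, its only transcript, fell by 1.09 (SE 0.15, edgeR adjusted p = 0.023) and that of SRSF11 rose by 1.13 (SE 0.12, edgeR adjusted p = 0.0136). In U87 mg 8 h, 1 of 28 sums was called, where 0.0312% of all such sums were. It was again SRSF5 protein_coding, at 194, 212 and 203 TPM at 0 h and at 112, 89.0 and 79.3 at 8 h, which fell by 1.12 (SE 0.12, edgeR adjusted p = 0.0475).

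The types on the other side of the balance did not pass. SRSF7 nonsense_mediated_decay counts in DAOY differed by 0.63 (edgeR adjusted p = 0.322), with TPM of 110, 46.5 and 51.2 at 0 h and 55.6, 105 and 52.5 at 8 h, which overlapped. SRSF5 retained_intron counts in DAOY differed by 0.57 (edgeR adjusted p = 0.503), at 166, 82.5 and 91.9 TPM and 98.3, 142 and 126 TPM. SRSF10 retained_intron counts differed by 1.10 (edgeR adjusted p = 0.159), SRSF6 protein_coding by -0.98 (0.0638) and SRSF3 protein_coding by -0.76 (0.0896). For SRSF5 and SRSF7 a drop in the coding counts was thus called, and a rise in another type was not. The overlaps of SRSF7 nonsense_mediated_decay and SRSF5 retained_intron TPM came from DAOY 0 h replicate 0, at 110 and 166 TPM. Every 8 h sample lay above the other DAOY controls in both, so the missing calls do not show that these types stayed level.

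Among single transcripts, 68 of the 90 entered the test in U87 mg and 69 in DAOY, and edgeR called 0 in each of the 4 comparisons with 0 h (0%, 0%, 0% and 0% of all transcripts in U87 mg 2 h, U87 mg 8 h, DAOY 2 h and DAOY 8 h). An unadjusted p under 0.05 was reached by 3, 13, 3 and 20 member transcripts in that order, and by 5.56%, 6.3%, 3.07% and 10.3% of all transcripts. DESeq2 called 0, 4, 1 and 9 of the member transcripts, beside 0.579%, 0.842%, 0.426% and 2.96% of all transcripts. With limma on log2(TPM + 1) the calls were 0, 1, 0 and 1, beside 0.0542%, 0.0246%, 0.0194% and 0.0314%.

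ENST00000313117, a protein_coding transcript of SRSF7 of 2489 bases, was at 38.2, 39.3 and 31.2 TPM in DAOY 0 h and at 6.50, 8.98 and 6.23 in DAOY 8 h. It was lower in every 8 h sample (log2 -2.29, SE 0.28, edgeR adjusted p = 0.0946; limma on log2(TPM + 1) -2.19, adjusted p = 0.0447), and in U87 mg it was at 9.65, 12.1 and 12.2 TPM at 0 h and at 5.05, 4.15 and 4.88 at 8 h. The intron-keeping NMD transcript of SRSF7 shown above, ENST00000443213, was at 27.7, 28.9 and 28.9 TPM in DAOY 0 h and at 42.5, 80.0 and 44.7 in DAOY 8 h, higher in all 3 samples (log2 1.02, SE 0.31, edgeR adjusted p = 0.32). The most abundant coding transcript, ENST00000409276 of 1050 bases, spread from 23.2 to 89.8 TPM among the DAOY controls alone and overlapped the 8 h samples.

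For SRSF5, the leading coding transcript ENST00000557154 was at 101, 127 and 112 TPM in DAOY 0 h and at 37.9, 28.03 and 14.1 in DAOY 8 h (log2 -2.04, SE 0.32, edgeR adjusted p = 0.114). In U87 mg it was at 95.1, 95.7 and 104 TPM at 0 h and at 44.9, 36.8 and 39.7 at 8 h (log2 -1.23, SE 0.13, edgeR adjusted p = 0.157; limma on log2(TPM + 1) -1.26, adjusted p = 0.0229). The groups were apart in both lines. The retained_intron transcripts whose donors are shown above did not differ alike, and neither difference was called. ENST00000556184, which keeps intron 5, was at 17.4, 10.7 and 8.24 TPM in DAOY 0 h and at 18.1, 42.6 and 33.2 in DAOY 8 h (log2 1.38, edgeR adjusted p = 0.421). ENST00000557460, which keeps intron 4, differed by -0.36 with overlap. Other SRSF5 transcripts of this type, such as ENST00000556330 with a mean of 30.2 TPM over the 18 samples, are not given here. The NMD transcript ENST00000555547 of SRSF5 was listed at 0 TPM in 1 control of each line and gave no readable difference (log2 1.38, SE 1.22, in DAOY).

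For SRSF11, the coding transcript ENST00000370951 was at 12.4, 19.1 and 14.0 TPM in DAOY 0 h and at 47.6, 47.3 and 48.9 in DAOY 8 h (log2 1.71, SE 0.19, edgeR adjusted p = 0.0946). In U87 mg it was at 4.80, 4.65 and 3.73 TPM at 0 h and at 16.2, 18.7 and 12.7 at 8 h (log2 1.88, SE 0.34, edgeR adjusted p = 0.262). It was higher in all 3 samples of both lines at 8 h, and a second SRSF11 coding transcript, ENST00000370949, differed by 1.17 in DAOY (edgeR adjusted p = 0.0946). DESeq2 called ENST00000370951 at 8 h in both lines. In DAOY 2 h its DESeq2 log2 difference was 0.82 (DESeq2 adjusted p = 0.00721), past the FDR but short of the fold threshold.

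For SRSF6, the coding transcript ENST00000244020 was at 67.8, 58.5 and 60.5 TPM in DAOY 0 h and at 28.8, 39.1 and 25.0 in DAOY 8 h (log2 -0.99, SE 0.22, edgeR adjusted p = 0.201). The poison exon form ENST00000483871 differed by -0.25 and overlapped. The higher measured NMD share of SRSF6 thus went with a lower measured coding level, and none of these differences was called. For SRSF3, the coding transcript ENST00000373715 was at 37.4, 50.3 and 45 TPM in DAOY 0 h and at 20.7, 23.1 and 15.7 in DAOY 8 h (log2 -1.12, SE 0.20, edgeR adjusted p = 0.133), and the other coding transcript, ENST00000620941, overlapped (log2 -0.29). The nonsense_mediated_decay transcript ENST00000613941 was listed at 0 TPM in DAOY 0 h replicate 0 and at 41.2 and 55.4 in the other controls, against 71.3, 36.2 and 38.8 at 8 h.

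**Figure D5:**
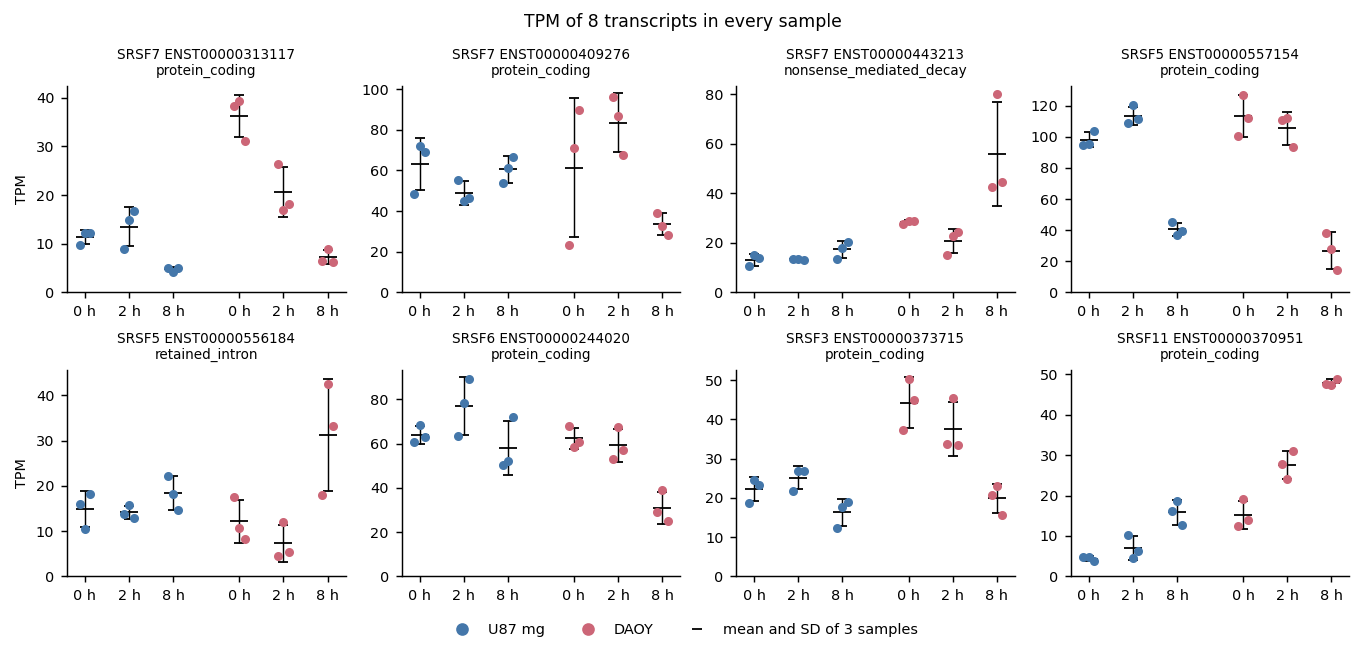
TPM of 8 transcripts of SRSF3, SRSF5, SRSF6, SRSF7 and SRSF11, on linear axes from 0 that differ between the panels, with 1 point per sample and the mean and SD of the 3 samples of each group in black. The coding transcripts ENST00000313117 of SRSF7 and ENST00000557154 of SRSF5 were lower in all DAOY 8 h samples than in all DAOY 0 h samples, and ENST00000370951 of SRSF11 was higher.

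Genes that work with SR proteins were counted by lists, none of which was chosen blind to earlier results of these data; those named for passing the FDR were picked after their values were seen. Over all genes, 2.34% rose and 3.5% fell past the FDR in DAOY 8 h, and 0.95% rose in U87 mg 8 h, the shares beside which the counts of the lists stand. Of 17 other SR and SR-like proteins, 4 rose past the FDR in DAOY 8 h with edgeR, 0 of them by the fold threshold. They were LUC7L, a U1 snRNP factor (log2 0.99, edgeR adjusted p = 0.0134), SREK1, an SR-related regulator (0.83, 0.028), PNN, which binds the exon junction complex (0.70, 0.0298), and SRRM2, a scaffold of nuclear speckles (0.55, 0.0471), and the list's median was 0.25 against -0.01 over all genes. The most abundant of the list, TRA2B and SON, differed by -0.27 and 0.39 and did not pass. In U87 mg 8 h 2 of 16 rose, LUC7L3 (0.75, edgeR adjusted p = 0.0225) and LUC7L (0.90, 0.0468).

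Among 9 SR protein kinases and their importer, CLK1, which phosphorylates SR proteins in the nucleus, rose in DAOY 8 h by 0.80 (edgeR adjusted p = 0.0436), and TNPO3, the importer, was at 0.15. Of 8 partners in splice site recognition, 0 passed in any comparison with 0 h; SF3B1 and SNRPC, the most abundant, differed by 0.24 and -0.22 in DAOY 8 h. Of 10 NMD factors, UPF2 rose in both lines at 8 h (0.60 in DAOY, edgeR adjusted p = 0.047, and 0.77 in U87 mg, 0.0271), and of 5 exon junction complex genes RBM8A fell by 0.56 in DAOY 8 h (edgeR adjusted p = 0.0334).

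Of 9 genes known for transcripts that NMD removes, 3 rose past the FDR in DAOY 8 h (2.34% of all genes) and 2 of them past the fold threshold (1.19% of all genes). ATF4, a stress-response transcription factor, had a mean of 198 TPM at 0 h and 372 at 8 h (log2 1.00, SE 0.16, edgeR adjusted p = 0.0106). SNHG12, a snoRNA host, had 18.1 and 45.2 (log2 1.45, SE 0.33, edgeR adjusted p = 0.0313), and SNHG1 rose by 0.94 (0.0379). The median of the list was 0.78 in DAOY 8 h, beside -0.01 over all genes. In U87 mg 8 h ATF4 alone of the list passed (log2 0.85, edgeR adjusted p = 0.0464). At 2 h edgeR passed 0 of all genes in either line, and so none of these lists.

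Finally, the gene whose profile over the 18 samples was most like each member was sought by Pearson's r of log2 CPM, centred within each line, over 14836 genes. These values describe libraries that share conditions and depth, and carry no test. For SRSF11 it was FNBP4 (r = 0.968), for SRSF10 PCM1 (0.958), for SRSF1 PPHLN1 (0.939) and for SRSF8 AMACR (0.938). For SRSF6 it was EFCAB11 (0.925), for SRSF5 TRIM69 (0.899), for SRSF2 RP11-50C13 (0.879), for SRSF7 NT5DC3 (0.873), for SRSF4 KIRREL (0.867) and for SRSF3 a gene listed under a clone name (0.842). Within the family, the nearest pairs were SRSF6 with SRSF7 (0.752) and SRSF8 with SRSF6 (0.746), below the leading genes in each case.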

How the data were processed

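Total RNA of 18 samples was sequenced after poly(A) selection. Per the labels and the study's methods, the authors trimmed the reads with the FastQC toolkit (2.0.0), assigned them to GENCODE transcripts of GRCh38 with kallisto (0.43.0) and compared groups with sleuth (0.28.1, R 3.2.1). The authors deposited, per transcript and sample, estimated counts (not normalised; 85.75% of those above 0 are not whole) and TPM (scaled by the authors for transcript length and depth). Another 24 columns hold the authors' own fold changes, p-values and q-values for 8 comparisons and were not used. Reads shared by transcripts of 1 gene were split by kallisto's model, so shares between types carry that uncertainty; the strand setting of the counting step is not given in the sources used here.

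Estimated counts were summed per gene name, or per gene and transcript type, and rounded. Gene sums, sums per type and transcripts were tested with edgeR 4.0.16 (quasi-likelihood test, TMM, its default expression filter) in R 4.3.3, within the 9 samples of a line, and over all 18 for the contrasts between lines; all features were adjusted together (Benjamini-Hochberg). Shares were tested with limma 3.58.1 with a trend on log2((k + 0.5)/(n - k + 0.5)), for genes with a mean of at least 50 counts and mean shares of 1% to 99%. The scripts were tested on simulated data. Alternatives were DESeq2 1.42.0, other size factors, limma on log2 TPM, other filters, fits of 6 or 18 samples, a replicate block and leaving out each sample.

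The replicate numbers do not pair the samples by their labels, nor, in the groups compared within a line, by their profiles. The 10 members and the lists were chosen with earlier results of these data known. All 10 genes were named in each comparison; shares were named for the 3 types at a mean of at least 10% or as examples, and transcripts as the most abundant of each type and gene, and others chosen after their values were seen where they were called by another tool or keep the introns shown. Sequences and positions come from GRCh38 with GENCODE 29; stop codons of other members are not reported here. Precision is limited by 3 samples a group and by depth, 101 to 5302 counts per gene and sample.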

Additional observations from a re-analysis of the deposited data

How the results depend on the processing

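For the 10 genes, the differences of 70 gene sums, 60 shares and 222 transcripts were compared with 4270 values under other settings: 4207 kept their direction and their side of the FDR, 42 passed it newly, 15 no longer passed it and 6 reversed (values smaller than their SE were taken as having no direction). The reversed values were SRSF2 in U87 mg 8 h under limma, -0.01 with either pseudocount (1 or 0.1 TPM), and the 2 h change of SRSF3 in DAOY minus U87 mg with limma on log2(TPM + 1), 0.02, and 3 transcripts when single samples were left out. These were ENST00000614136 in DAOY 2 h (-0.81 to 0.05, the last without DAOY 0 h replicate 0), ENST00000359995 in U87 mg 2 h (-0.69 to 0.11, the last without U87 mg 0 h replicate 1) and ENST00000485292 in U87 mg 8 h (-0.02 to 0.65, the first without U87 mg 8 h replicate 1). Of the values that passed newly, 16 were gene sums, 3 shares and 23 transcripts, and the 15 lost were gene sums. The cause was not tested. Precision was limited by 3 samples a group, and low transcripts were often at 0.

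Of the 10 gene sums, 1 in U87 mg 8 h and 2 in DAOY 8 h passed the FDR with no minimum fold, and between the lines at 0 h 4 did, and 2 passed both thresholds by DESeq2 and by RLE size factors. Leaving out single samples gave 0 to 2 calls in DAOY 8 h, 2 without DAOY 0 h replicate 0 and 0 without DAOY 8 h replicate 1. Of the member shares, edgeR on sums per type called 1 in U87 mg 8 h and 4 in DAOY 8 h, and the fit of 18 samples 3 in DAOY 8 h. Of the member transcripts, DESeq2 called 4 in U87 mg 8 h, 1 in DAOY 2 h and 9 in DAOY 8 h, limma on log2(TPM + 1) 1 and 1 at 8 h in U87 mg and DAOY, and on log2(TPM + 0.1) 1 and 2.

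Counts over all genes, in the order U87 mg 2 h, U87 mg 8 h, DAOY 2 h and DAOY 8 h, were 0, 90, 0 and 482. They were 3, 127, 1 and 617 with DESeq2, 57, 233, 18 and 675 with no filter, 1, 8, 0 and 302 by limma (pseudocount 1), 1, 2, 0 and 345 by limma (pseudocount 0.1), 2, 0, 0 and 178 with the 6 samples compared, 0, 58, 0 and 732 with all 18 samples, and 0, 243, 0 and 900 with no minimum fold. In DAOY 8 h 183 were higher and 299 lower, and 76 and 226 with limma on log2(TPM + 1). Leaving out single samples gave 0 to 71, 0 to 136, 0 and 31 to 402; the extremes came without U87 mg 0 h replicate 0 (71 and 136), U87 mg 8 h replicate 2 (0) and DAOY 8 h replicate 1 (31). For the interaction, 2 and 84 genes passed at 2 h and 8 h with DESeq2, 38 and 158 with no filter, 0 and 6 with limma on log2(TPM + 1), and 1 to 5 at 8 h without single samples. Between the lines the count was 6671 to 7068 without single samples.

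Of all shares, 2, 2, 1 and 2 were called in the same order. The share of TPM gave 0, 1, 0 and 0, an offset of 5 counts 0 in each, edgeR on sums per type 0, 7, 0 and 224, the 6 samples compared 7, 2, 2 and 1, and all 18 samples 0 in U87 mg 8 h, 0 in DAOY 2 h and 24 in DAOY 8 h. A minimum of 200 counts gave 0 in DAOY 2 h and 1 in DAOY 8 h, and no minimum difference gave 6 in U87 mg 2 h and 2 in DAOY 2 h. Leaving out single samples gave 2 to 25, 0 to 6, 0 to 11 and 0 to 16. Of all transcripts, 0 were called in each, 235, 342, 176 and 1225 by DESeq2, 22, 10, 8 and 13 by limma (pseudocount 1), 37, 21, 25 and 75 by limma (pseudocount 0.1) and 2, 2, 3 and 10 with no filter, and 0 to 6 in U87 mg 2 h without single samples.

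With the replicate number as a block, 0 of all shares were called in each comparison and the genes called were 0, 68, 0 and 326. The replicate block moved no other count of calls by over 1.5 times. The labels do not say that a replicate number marks a shared batch. Of 18 correlations between samples of the same number at 2 times of a line, 8 were over 0.1 (range -0.392 to 0.687). In 7 of these 18 comparisons the own number gave the highest correlation. Between U87 mg 2 h and 8 h, which were not compared with each other, the own number was best for all 3 pairs (0.18 to 0.514).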

Other observations

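Shares by type were also read for the related genes of the lists. None of the 8 h differences named here passed an FDR of 0.05 with limma across all genes, and the genes were chosen after their values were seen. TRA2B, a splicing activator of the same superfamily, had a protein_coding share of 83.9% ± 4.5 (SD, n = 3) in DAOY 0 h and 63.35% ± 6.91 in DAOY 8 h, and a retained_intron share of 9.26% ± 0.29 and 28.26% ± 9.96 (limma adjusted p = 0.33 for each). The DAOY groups did not overlap, and in U87 mg the same shares differed by -0.15 and 1.49 percentage points. SRRM1, a scaffold of the spliceosome, had a retained_intron share of 4.54% ± 0.65 in DAOY 0 h and 15.48% ± 2.53 in DAOY 8 h, with no overlap (limma adjusted p = 0.167), and a difference of 1.72 points in U87 mg with overlap. SREK1 had a nonsense_mediated_decay share of 10.48% ± 0.23 and 19.79% ± 1.37 in DAOY (limma adjusted p = 0.611).

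LUC7L ran against these. Its protein_coding share was 57.53% ± 14.11 in U87 mg 0 h and 87.1% ± 2.14 in U87 mg 8 h, and its retained_intron share 37.06% ± 11.1 and 11.19% ± 1.26, with no overlap (limma adjusted p = 0.495 and 0.47). Among the related genes RSRC1 in U87 mg 2 h passed the test: its nonsense_mediated_decay share was 7.04% ± 1.45 at 0 h and 0.02% ± 0.03 at 2 h (limma adjusted p = 0.00708), and at 8 h it was 6.41% ± 3.58. That call was lost with the share of TPM (limma adjusted p = 0.0563), an offset of 5 counts (0.106), all 18 samples in 1 fit (0.118), the replicate block (0.0813), edgeR on sums per type (0.173) and without U87 mg 0 h replicate 1 (0.0563, limma).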
